A study of Mus musculus with 6 samples.

Results

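The TGF-beta and BMP signalling genes described here are 51 named ligands, receptors, SMADs, latency proteins, antagonists and target genes, out of 54189 features in an RNA-seq count table of mouse Achilles tendon. They were taken by symbol from a list of names, with no threshold on their values, and all 51 were found in the table. The list was chosen with earlier results of these data known. Achilles tendon was collected at 4 weeks of age from 3 genotypes with 1 library each, and neither sex nor strain is given in the labels. Control tissue came from a Dicer f/f mouse, in which both Dicer alleles are floxed and no Cre is present. ScxHt tissue came from a ScxCre/+ knock-in mouse with Dicer +/+ alleles, and Dicer cKO tissue from a ScxCre/+ knock-in mouse with Dicer f/f alleles. Cre sits in the Scx locus and disables that Scx copy, so ScxHt and Dicer cKO share 1 working Scx allele. Cre follows the Scx promoter, so the deletion of Dicer is aimed at cells of the Scx lineage. Muscle, nerve and vessel cells in the dissected tissue do not belong to that lineage. By real-time PCR, the study found Dicer significantly lower in Achilles tendons of Dicer cKO than of Control mice at this age. The study describes this fall as not dramatic and proposes inefficient and mosaic recombination as possible reasons. Dicer cKO therefore differs from Control in both the Scx and the Dicer locus, and from ScxHt in the Dicer alleles.

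TGF-beta family ligands are secreted dimers that bring together type I and type II serine/threonine kinase receptors. TGF-betas and activins signal through SMAD2 and SMAD3, and BMPs and most GDFs through SMAD1, SMAD5 and SMAD9, and both sets enter the nucleus with SMAD4. TGF-betas are secreted in a latent form tethered to the matrix by latent TGF-beta binding proteins, while BMPs are held back by secreted antagonists such as Noggin, Chordin and Gremlin. In tendon, TGF-beta signalling is known for the recruitment and maintenance of tendon progenitors and for the induction of Scx, and BMP and GDF signals for the tendon to bone attachment.

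Read totals ranged from 14959399 to 16244232 per library. Dicer1 had 1919, 2025 and 1621 reads in the Control, ScxHt and Dicer cKO libraries, and Scx, a tendon transcription factor, had 1055, 686 and 371. Dicer1 counts cover the whole gene and hence also transcripts that lack only the floxed part. Summed reads of 8 tendon fibroblast markers stood at 131476 CPM (summed counts per total counts of the library) in Control, 113449 in ScxHt and 75681 in Dicer cKO, and those of 10 skeletal muscle markers at 54412, 30553 and 94414. The 8 endothelial markers stood at 653, 473 and 747 CPM, 8 macrophage markers at 229, 430 and 182, and 7 cartilage markers at 1501, 1751 and 758. The sums weigh each gene by its reads, so Col1a1, with 1261322 reads in Control, and Ttn, with 688745, count most in theirs. Single ScxHt/Control ratios, scaled as described below, ran from 0.623 to 1.57 over the tendon markers, with a median of 1.11. Over the muscle markers they ran from 0.419 to 4.70, with a median of 0.866. None of the tendon, muscle, endothelial and macrophage markers was at 0 in any library, and 1 of the cartilage markers was at 0 in each. The tissue was analysed in bulk, so fewer cells of a type and less RNA per cell cannot be told apart. The part that these shifts in markers had in the ratios was not tested.

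Counts were scaled by the DESeq2 size factors of the 2 libraries compared, and ratios of normalized counts are given for genes whose mean normalized count, the baseMean, exceeded 50. Genes below a ratio of 0.60 are called lower, and genes above the upper threshold, the reciprocal of 0.60 rounded up to 2 decimals, are called higher. Each ratio is followed by its 95% Clopper-Pearson interval in parentheses, which covers counting error only. Since each genotype has 1 library, the spread between mice is unknown, there is no test, and no p-value is given.

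Most of the TGF-beta and BMP genes had a lower normalized count in Dicer cKO than in Control. Of the 48 members with enough reads, 41 had a ratio below 1, as did 54.1% of the 13504 genes analysed, and 7 had one above 1, as did 45.9%. For 31 of the 48 the whole interval lay below 1 (28.4% of all genes) and for 3 it lay above 1 (21.5% of all genes). Past the thresholds, 7 members were lower, where the share among all genes was 4.17%, and 0 were higher, where it was 3.87%. The median log2 ratio of the members was -0.32, against -0.03 over all genes. It was less far from 0 than the median of the 8 tendon fibroblast markers, -0.84.

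In ScxHt, the members lay on both sides of Control. Of 47 members with enough reads, 27 had a ratio above 1, as did 52.6% of 13563 genes, and 20 one below 1, as did 47.4%. The whole interval lay above 1 for 19 (26.4% of all genes) and below 1 for 12 (23.7%). Past the thresholds, 4 were higher (3.05% of all genes) and 2 lower (4.73%). The median log2 ratio was 0.07, and 0.02 over all genes. Against ScxHt, 36 of 48 members were below 1 in Dicer cKO, as were 53.9% of 13555 genes, and 12 above 1, as were 46.1%. The whole interval lay below 1 for 31 (30.5% of all genes) and above 1 for 8 (24.8%). Past the thresholds, 9 were lower (5.68% of all genes) and 2 higher (7.67%). The median log2 ratio was -0.37, and -0.03 over all genes. The 3 comparisons share libraries pairwise and are not independent of each other.

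**Figure D1:**
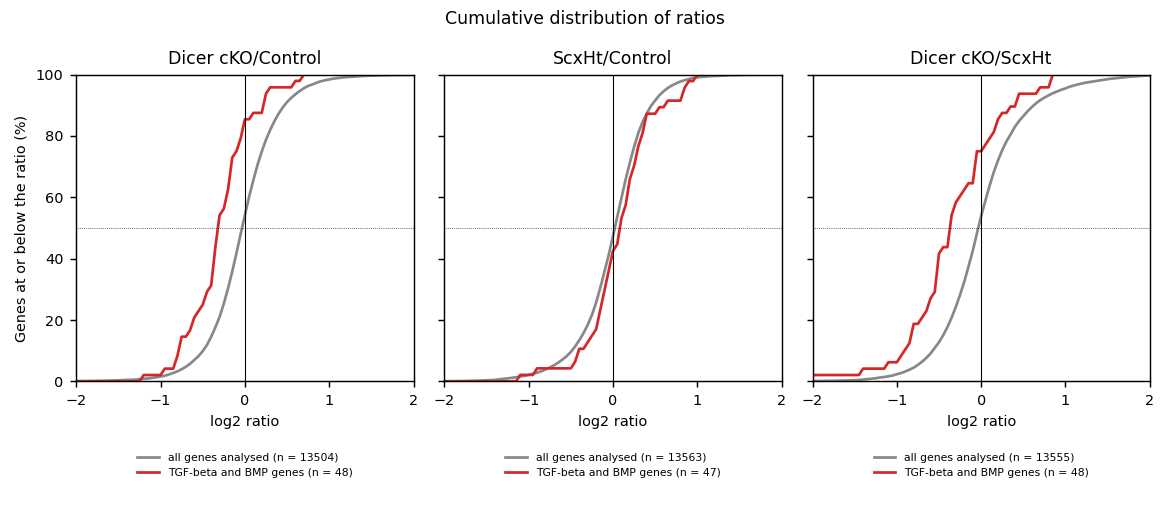
Cumulative share of genes (%) at or below each log2 ratio of normalized counts in the 3 comparisons, for the TGF-beta and BMP genes (red) and for all genes analysed (grey). The red curve lies to the left of the grey one in Dicer cKO/Control and Dicer cKO/ScxHt, with medians of -0.32 and -0.37, and near it in ScxHt/Control, with a median of 0.07. Gdf5 in Dicer cKO/ScxHt, at -2.21, lies beyond the left end of the axis.

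With all 3 libraries scaled together, Dicer cKO held the lowest normalized count for 34 of the 47 members analysed in every comparison, where the share among all genes was 39.2%. The ScxHt library held the highest for 25 of them, where the share was 37%. The commonest order, ScxHt above Control above Dicer cKO, was that of 23 members.

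**Figure D2:**
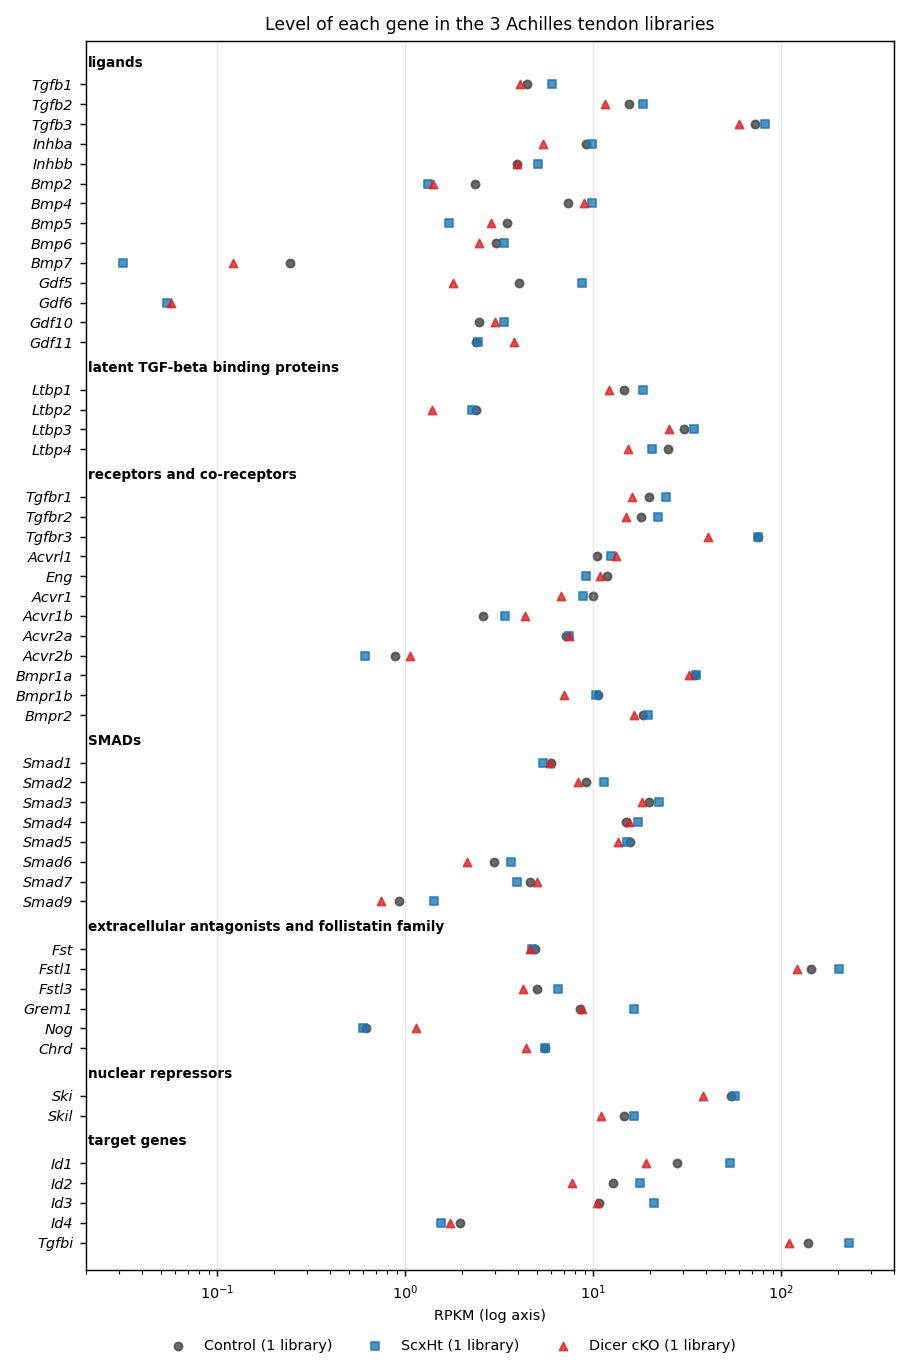
RPKM (log axis) of each of the 51 genes in the Control (circle), ScxHt (square) and Dicer cKO (triangle) library, grouped by role. Fstl1 and Tgfbi are the most abundant at 144 and 139 RPKM in Control, the Dicer cKO symbol is the leftmost for most genes, and Gdf6 has no Control symbol because its value is 0.

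Among the 14 ligands, the TGF-beta isoforms 3 and 2 were the most abundant, and both were highest in ScxHt and lowest in Dicer cKO. Tgfb3, the TGF-beta isoform typical of scarless repair, had 72.9 RPKM in Control, 82.2 in ScxHt and 59.6 in Dicer cKO. Its ratio was 0.782 (0.746–0.820) for Dicer cKO/Control and 1.05 (1.01–1.10) for ScxHt/Control. Tgfb2 stood at 15.4, 18.3 and 11.5 RPKM, with ratios of 0.714 (0.659–0.775) and 1.10 (1.03–1.19). Tgfb1, the isoform best known from fibrosis, was the least abundant of these 3 isoforms at 4.47, 6.04 and 4.08 RPKM. The interval of its Dicer cKO/Control ratio, 0.874 (0.749–1.02), included 1. None of the isoforms passed a threshold.

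Gdf5, a ligand of the BMP branch that marks joint and tendon attachment progenitors, showed the widest spread of all members analysed. It lies on chromosome 2 from 155941023 to 155945367 (GRCm38) and had 152 reads in Control, 317 in ScxHt and 62 in Dicer cKO. The ScxHt library was high and the Dicer cKO library low. Its ratio was 0.424 (0.310–0.573) for Dicer cKO/Control, 0.215 (0.161–0.284) for Dicer cKO/ScxHt and 1.998 (1.64–2.44) for ScxHt/Control. The first of these lay at percentile 0.741 of all genes analysed. Exons of Gm15557 on the opposite strand cover 40.3% of the exon bases of Gdf5, and since the strand setting of the counting is not given, reads of the 2 genes cannot be told apart. The summed cartilage markers given above were likewise lowest in Dicer cKO and highest in ScxHt, but single markers differed in order. Sox9 had 527, 400 and 130 reads in Control, ScxHt and Dicer cKO, and Matn3 had 70, 106 and 103. The part of cartilage cells in the Gdf5 values was not tested.

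Inhba encodes the subunit of activin A, which signals through the same SMADs as TGF-beta. On chromosome 13 from 16011851 to 16031621, it had 953 reads in Control, 993 in ScxHt and 515 in Dicer cKO. Control and ScxHt lay within counting error of each other, with a ratio of 0.998 (0.913–1.09), and Dicer cKO was lower than either, at 0.561 (0.503–0.625) and 0.571 (0.513–0.636). Inhbb, the other activin subunit, had a Dicer cKO/Control ratio of 0.958 (0.803–1.14).

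Among the BMP ligands, Bmp2 and Bmp5 were low in ScxHt as well. Bmp2, an inducer of bone and cartilage, had 135, 74 and 75 reads in Control, ScxHt and Dicer cKO, with ratios of 0.577 (0.429–0.771) for Dicer cKO/Control and 0.525 (0.390–0.703) for ScxHt/Control. Between Dicer cKO and ScxHt the depth did not allow a difference to be seen, at 1.12 (0.799–1.56). Bmp5 had 228, 108 and 172 reads, and ScxHt was the low library, at a ratio of 0.454 (0.358–0.573) to Control. The Dicer cKO/ScxHt ratio of Bmp5 was 1.75 (1.37–2.25), and that to Control 0.783 (0.639–0.959). Exons of Gm26903 on the opposite strand cover 46.7% of the exon bases of Bmp5.

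Bmp4, which with Bmp2 is the prototype of the BMP branch, had 7.37, 9.90 and 8.89 RPKM, and its Dicer cKO/Control interval of 0.976 to 1.37 included 1. Bmp6 had a ratio of 0.775 (0.620–0.966) for Dicer cKO/Control and Gdf10 one of 1.17 (0.969–1.42). Gdf11, a close relative of myostatin, was the only one of the 14 member ligands whose interval lay above 1 for Dicer cKO/Control, at 1.51 (1.23–1.86), with 158, 156 and 230 reads. It had a ratio of 1.62 (1.32–2.004) to ScxHt. Bmp7 and Gdf6 did not reach the minimum. Bmp7 had 16, 2 and 7 reads, a Dicer cKO/Control ratio of 0.454 (0.158–1.17), and Gdf6 had 0, 3 and 3, at or under the floor of 3 reads.

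All 4 latent TGF-beta binding proteins had their whole interval below 1 in Dicer cKO, against Control (28.4% of all genes) and against ScxHt (30.5%). Ltbp3 and Ltbp4 were the most abundant, at 30.2 and 25.1 RPKM in Control. Ltbp4, on chromosome 7 from 27305136 to 27337692, is also needed for elastic fibres and had 2636 reads in Control, 2083 in ScxHt and 1479 in Dicer cKO. The libraries stepped down in that order, with ratios of 0.583 (0.546–0.621) for Dicer cKO/Control and 0.757 (0.715–0.802) for ScxHt/Control. Ltbp2, which unlike the others does not bind latent TGF-beta, had 316, 293 and 171 reads and a Dicer cKO/Control ratio of 0.562 (0.464–0.679). Ltbp3 and Ltbp1, both carriers of latent TGF-beta, had ratios of 0.805 (0.759–0.854) and 0.792 (0.746–0.841). In ScxHt, Ltbp1 was at 1.16 (1.10–1.23) and the interval of Ltbp2 and that of Ltbp3 included 1. With total-count scaling, the Dicer cKO/Control ratios of Ltbp4, Bmp2 and Id2 were no longer below 0.60.

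Of the 12 receptors and co-receptors, Tgfbr3 stood apart by level and by difference. Tgfbr3, or betaglycan, presents TGF-beta2 and inhibins to the signalling receptors, and lies on chromosome 5 from 107106570 to 107289629. It had 8009 reads in Control, 7791 in ScxHt and 3985 in Dicer cKO, or 75.3, 75.5 and 40.7 RPKM. Control and ScxHt were close and Dicer cKO was low. The ratio was 0.517 (0.497–0.537) for Dicer cKO/Control, at percentile 1.86 of all genes, 0.564 (0.542–0.586) for Dicer cKO/ScxHt and 0.932 (0.903–0.962) for ScxHt/Control. Tgfbr3 and Gdf5 were the members whose whole interval lay below 0.60 for Dicer cKO/Control.

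The signalling receptors of TGF-beta differed less. Tgfbr2, the type II receptor, had 17.9, 22.05 and 14.96 RPKM in Control, ScxHt and Dicer cKO, and Tgfbr1, the type I receptor, 19.7, 24.5 and 16.1. Their Dicer cKO/Control ratios were 0.798 (0.750–0.848) and 0.781 (0.731–0.834), and their ScxHt/Control ratios 1.14 (1.08–1.21) and 1.16 (1.09–1.23). Both were highest in ScxHt and lowest in Dicer cKO, and neither passed a threshold.

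The BMP type I receptor Bmpr1a was the second most abundant receptor at 34.9, 35.2 and 32.2 RPKM, with a Dicer cKO/Control ratio of 0.881 (0.839–0.925). The type II receptor Bmpr2 was at 0.856 (0.822–0.891). Bmpr1b, the preferred receptor of GDF5, had 1024, 977 and 625 reads and a ratio of 0.634 (0.573–0.701). Acvr1, the BMP receptor mutated in fibrodysplasia ossificans progressiva, had 783, 668 and 488 reads and a ratio of 0.647 (0.577–0.726). Neither passed the threshold of 0.60.

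Acvrl1 and Eng, a receptor and a co-receptor used mainly by endothelium, went apart in both comparisons with Control. Acvrl1 had 722, 841 and 846 reads, a Dicer cKO/Control ratio of 1.22 (1.10–1.35), and Eng 781, 584 and 661 reads, a ratio of 0.879 (0.791–0.976). For ScxHt/Control, Eng had a ratio of 0.717 (0.643–0.799) and Acvrl1 one of 1.12 (1.01–1.23), while the endothelial markers had a median log2 ratio of -0.51 over 8 genes. For Dicer cKO/ScxHt, both had their whole interval above 1, Eng at 1.25 (1.11–1.40) and Acvrl1 at 1.11 (1.01–1.22). The endothelial markers had a median log2 ratio of 0.64 there. The part of vessel content in these values was not tested. Of the activin type II receptors, Acvr2a had ratios from 0.963 to 1.04 over the 3 comparisons with 1 inside every interval. Acvr2b, with 56, 38 and 62 reads, was higher for Dicer cKO/ScxHt, at 1.80 (1.18–2.77).

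Acvr1b, the type I receptor of activin, had the highest Dicer cKO/Control ratio of the members analysed, and the study listed it among candidate targets of miR-135a. That list was drawn from genes higher in Dicer cKO in these libraries, so the direction is not independent evidence. On chromosome 15 from 101174067 to 101213684, Acvr1b had 186 reads in Control, 236 in ScxHt and 288 in Dicer cKO. The ratio was 1.61 (1.33–1.94) for Dicer cKO/Control, just short of the upper threshold, 1.34 (1.13–1.60) for Dicer cKO/ScxHt and 1.22 (0.999–1.48) for ScxHt/Control. The mature miRNA and the match in the longest annotated 3′ UTR of Acvr1b are shown because of that listing, for which the site used is not given, with the seed (bases 2 to 8) and the complementary 8mer in capitals. The UTR bases lie at chr15:101212225-101212254 on the plus strand (GRCm38), and the miRNA sequence is from RefSeq.
miR-135a-5p: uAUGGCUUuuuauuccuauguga
Acvr1b 3′ UTR site: taataactttgAAGCCATAactttttaact
In small RNA-seq, the 2 loci of this miRNA had 38 and 41 reads in Control, 13 and 13 in ScxHt and 16 and 16 in Dicer cKO. These are raw reads, not scaled to the depth of each library. The 2 loci give the same mature sequence, so their counts may hold the same reads and are not separate measurements.

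Seed matches of miR-135a-5p were searched in the longest 3′ UTR of every member analysed, as AAGCCATA (8mer), AAGCCAT (7mer-m8) or AGCCATA (7mer-A1). Of 48 members, 14 held one (29.2%), as did 22.9% of 10961 genes analysed that have a 3′ UTR. An 8mer was present in 2 members, Acvr1b and Smad5. Smad5 had a Dicer cKO/Control ratio of 0.823 (0.769–0.881), and the other 12 members with a 7mer had ratios from 0.561 for Inhba to 0.881 for Bmpr1a. Acvr1b was the 1 gene among these 14 with a ratio above 1.

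The 8 SMADs, the transducers of the pathway, differed little, and none passed a threshold against Control. Smad3 and Smad5 were the most abundant at 19.9 and 15.8 RPKM in Control, and Smad5 had 1903, 1774 and 1509 reads. Smad3 had 1789, 1964 and 1509 reads in Control, ScxHt and Dicer cKO, a Dicer cKO/Control ratio of 0.876 (0.817–0.939). Smad4, the shared partner, had 903, 1012 and 857 reads and a ratio of 0.986 (0.897–1.08), and Smad2 one of 0.866 (0.762–0.985). Smad1 was at 0.946 (0.841–1.06).

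The inhibitory SMADs differed from each other. Smad6, which acts mainly on the BMP branch, had 155, 185 and 102 reads and a Dicer cKO/Control ratio of 0.683 (0.527–0.883). Smad7, which blocks the TGF-beta receptor, had 339, 281 and 340 reads and a ratio of 1.04 (0.893–1.21). Smad9, also called Smad8, had 81, 120 and 60 reads, high in ScxHt and low in Dicer cKO. Its ratio was below 0.60 for Dicer cKO/ScxHt, at 0.551 (0.397–0.757), and that for Dicer cKO/Control, 0.769 (0.542–1.09), had an interval that included 1.

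**Figure D3:**
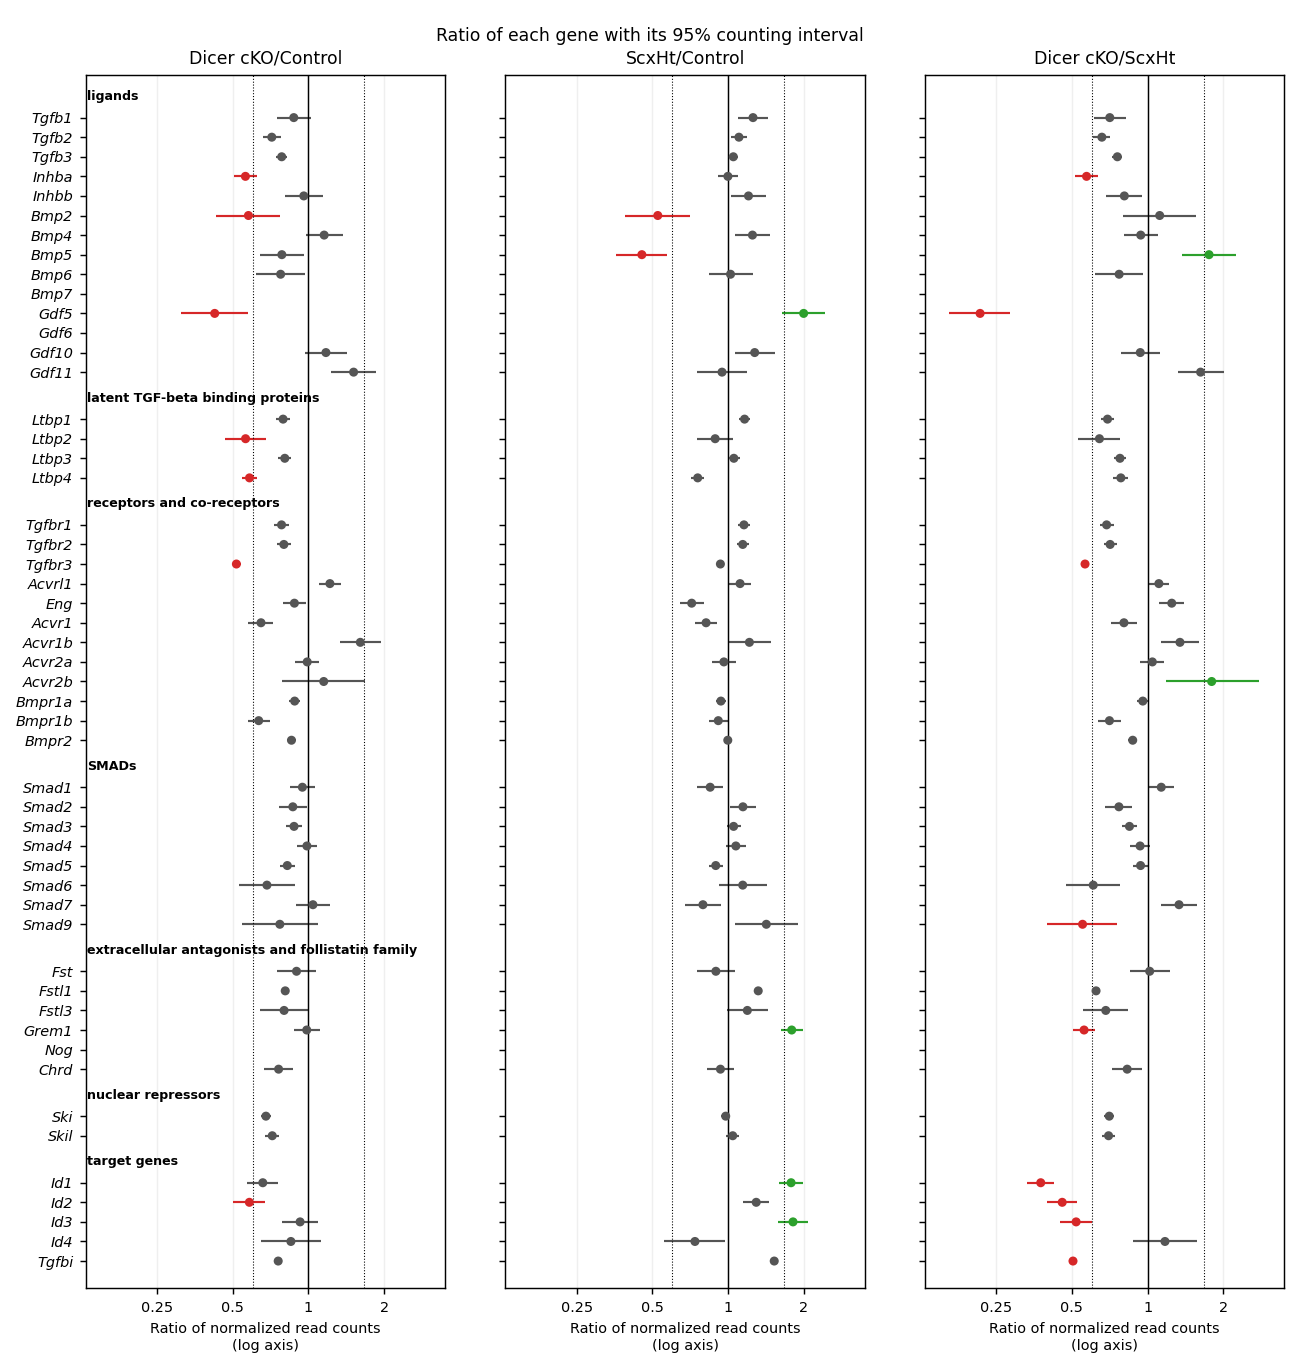
Ratio of normalized counts (point, log axis) of each gene with enough reads, with its 95% counting interval (line), in the 3 comparisons named above the panels. Dotted lines mark the 2 thresholds, red points are lower and green points higher. Points of Dicer cKO/Control lie mostly left of 1, with 7 red and 0 green, and the Id genes Id1, Id2 and Id3 are the row of red points at the lower end of Dicer cKO/ScxHt.

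Of the secreted antagonists and follistatin-like proteins, Fstl1 had the highest RPKM of all members in Control. Fstl1, a secreted glycoprotein of mesenchymal cells that dampens BMP signalling, had 11486 reads in Control, 15799 in ScxHt and 8939 in Dicer cKO. ScxHt was high and Dicer cKO low, with ratios of 1.32 (1.29–1.35) for ScxHt/Control, 0.808 (0.786–0.831) for Dicer cKO/Control and 0.623 (0.607–0.640) for Dicer cKO/ScxHt. Grem1, an antagonist of BMP2 and BMP4 on chromosome 2 from 113746164 to 113758646, had 574, 1073 and 544 reads. Control and Dicer cKO lay within counting error of each other, at 0.984 (0.874–1.11), and ScxHt was high, with a ratio of 1.79 (1.62–1.99) to Control. The Dicer cKO/ScxHt ratio of Grem1 was 0.559 (0.503–0.620).

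Chrd, the BMP antagonist Chordin, had 523, 509 and 383 reads and a Dicer cKO/Control ratio of 0.760 (0.665–0.869). Fst, the activin antagonist follistatin, had 270, 252 and 233 reads, and 1 was inside the interval in every comparison. Fstl3 had a ratio of 0.800 (0.644–0.992), and exons of Prss57 on the opposite strand cover 47.3% of its exon bases. Nog, the BMP antagonist Noggin, did not reach the minimum, with 17, 16 and 29 reads, and its Dicer cKO/Control ratio was 1.77 (0.941–3.44).

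Ski and Skil, nuclear repressors that bind SMADs, were both lower in Dicer cKO, by their intervals but not past 0.60. Ski had 4895, 4999 and 3192 reads in Control, ScxHt and Dicer cKO, with ratios of 0.677 (0.647–0.708) for Dicer cKO/Control and 0.704 (0.673–0.736) for Dicer cKO/ScxHt. Skil, itself induced by TGF-beta, had 2304, 2509 and 1592 reads and ratios of 0.718 (0.673–0.765) and 0.699 (0.656–0.745). For ScxHt/Control both intervals included 1.

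The 5 target genes, the 4 Id genes and Tgfbi, were the role group with the lowest median against ScxHt and the highest in ScxHt/Control. The median log2 ratio was -0.99 for Dicer cKO/ScxHt, 0.61 for ScxHt/Control and -0.40 for Dicer cKO/Control. The Id genes encode helix-loop-helix proteins that block other transcription factors and are the classic direct targets of BMP signalling. Id1, on chromosome 2 from 152736251 to 152737410, had 524 reads in Control, 974 in ScxHt and 332 in Dicer cKO. Its ratio was 1.78 (1.60–1.98) for ScxHt/Control, 0.658 (0.572–0.756) for Dicer cKO/Control and 0.376 (0.331–0.426) for Dicer cKO/ScxHt, the last at percentile 0.575 of all genes.

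Id2, on chromosome 12 from 25093799 to 25097140, had 505, 682 and 283 reads. Dicer cKO was low, at 0.582 (0.501–0.674) of Control and 0.457 (0.397–0.526) of ScxHt. Id3, on chromosome 4 from 136143497 to 136145755, had 314, 594 and 280 reads, with ScxHt high. The ratio of Id3 was 1.81 (1.58–2.09) for ScxHt/Control, 0.519 (0.449–0.5997) for Dicer cKO/ScxHt and 0.926 (0.785–1.09) for Dicer cKO/Control. Id4, the least abundant at 122, 94 and 100 reads, was at 1.17 (0.876–1.57) for Dicer cKO/ScxHt and 0.738 (0.558–0.974) for ScxHt/Control, with no threshold passed.

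Tgfbi, a matrix protein named for its induction by TGF-beta, lies on chromosome 13 from 56609523 to 56639562. It had 8518 reads in Control, 13568 in ScxHt and 6215 in Dicer cKO. The ratio was 1.53 (1.49–1.57) for ScxHt/Control, 0.758 (0.733–0.783) for Dicer cKO/Control and 0.505 (0.490–0.520) for Dicer cKO/ScxHt. Macrophages express Tgfbi too, and the macrophage markers had median log2 ratios of 0.78 over 7 genes for ScxHt/Control and -1.19 over 6 genes for Dicer cKO/ScxHt. Their part in the Tgfbi values was not tested.

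Promoters of members were searched for letters that SMADs are known to bind, on both strands, from 250 bases before to 50 after each RefSeq start site (GRCm38.p6). A promoter was searched for 37 of the 51 members. Smad2, Smad4 and Smad7 were not among them, because the chromosome that carries them was left out of the search. The genes used for comparison lack that chromosome too. GGCGCC was present in 14 of them (37.8%), in 25.5% of 8731 genes analysed and in 13.4% of 27025 genes with a promoter. GCCGNCGC was present in 16 members (43.2%), and in 23.2% and 10.9% of those genes. CAGACA was present in 8 members (21.6%), and in 18.6% and 23.6%. The palindrome GTCTAGAC was present in 1 member, 2.70%, and in 0.298% and 0.248%. Matches of different motifs can overlap.

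Of the 9 members below 0.60 for Dicer cKO/ScxHt, 6 had a promoter sequence, and 4 of these held a match to at least 1 motif, as did 25 of the 37 members (67.6%) and 51.1% of the genes analysed. These 4 are shown because they belong to the genes that differed most between the 2 libraries with ScxCre, with matches in capitals. They lie at chr3:54755332-54755631 on the plus strand, chr2:113758599-113758898 on the minus strand, chr12:25096043-25096342 on the minus strand and chr13:56609336-56609635 on the plus strand.
Smad9 promoter: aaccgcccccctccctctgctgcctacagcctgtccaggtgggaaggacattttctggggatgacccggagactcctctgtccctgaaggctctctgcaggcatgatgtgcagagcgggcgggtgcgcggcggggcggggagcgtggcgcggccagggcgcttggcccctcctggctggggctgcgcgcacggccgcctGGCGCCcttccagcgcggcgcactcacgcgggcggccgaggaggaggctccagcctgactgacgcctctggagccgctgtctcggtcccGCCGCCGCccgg
Grem1 promoter: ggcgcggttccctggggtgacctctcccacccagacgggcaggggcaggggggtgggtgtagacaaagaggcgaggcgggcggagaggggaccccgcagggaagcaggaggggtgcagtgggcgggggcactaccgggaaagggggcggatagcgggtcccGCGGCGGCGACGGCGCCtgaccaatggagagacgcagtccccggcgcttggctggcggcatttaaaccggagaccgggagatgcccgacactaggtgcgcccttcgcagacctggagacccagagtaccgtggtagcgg
Id2 promoter: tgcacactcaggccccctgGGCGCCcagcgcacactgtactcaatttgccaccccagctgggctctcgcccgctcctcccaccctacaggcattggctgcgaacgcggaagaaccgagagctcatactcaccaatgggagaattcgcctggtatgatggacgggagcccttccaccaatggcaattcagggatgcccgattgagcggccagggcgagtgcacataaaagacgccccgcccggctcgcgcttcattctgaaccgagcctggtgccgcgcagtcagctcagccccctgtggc
Tgfbi promoter: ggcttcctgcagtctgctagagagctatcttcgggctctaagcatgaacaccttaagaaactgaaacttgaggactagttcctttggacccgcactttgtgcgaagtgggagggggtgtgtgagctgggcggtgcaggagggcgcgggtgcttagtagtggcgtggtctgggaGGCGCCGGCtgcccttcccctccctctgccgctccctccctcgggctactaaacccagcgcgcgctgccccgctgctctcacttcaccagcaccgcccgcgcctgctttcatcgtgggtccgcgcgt
GGCGCC occurs once in each, starting 51 bases before the start site in Smad9, 78 in Grem1, 231 in Id2 and 77 in Tgfbi. In Grem1 and Tgfbi it overlaps a match to GCCGNCGC. The promoters of Inhba and Id3 held none of the 4 motifs in this window.

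Beyond the members, 96 other genes of the pathway were examined, of which 64 had enough reads for Dicer cKO/Control. Of these, 8 were lower and 3 higher, where the shares among all genes were 4.17% and 3.87%. The whole interval lay below 1 for 33 (28.4% of all genes) and above 1 for 14 (21.5%). The median log2 ratio was -0.20. The 20 intracellular regulators, such as the ubiquitin ligases Smurf1 and Smurf2, had a median of -0.02 with ratios from 0.725 to 1.35 and none past a threshold. The 6 other antagonists had a median of -0.54 and the 15 genes for activation and matrix storage of ligands one of -0.36.

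Nbl1, a secreted BMP antagonist, had 1664 reads in Control, 1342 in ScxHt and 463 in Dicer cKO, stepping down in that order. Its ratio was 0.289 (0.260–0.320) for Dicer cKO/Control and 0.773 (0.719–0.831) for ScxHt/Control.

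The 15 other target genes had medians of -0.41 for Dicer cKO/Control and 0.16 for ScxHt/Control. Cyr61, a matricellular protein, had 4485, 2625 and 2135 reads in Control, ScxHt and Dicer cKO. It was high in Control, with ratios of 0.494 (0.469–0.521) for Dicer cKO/Control and 0.561 (0.534–0.589) for ScxHt/Control. Lox, the collagen crosslinking enzyme, had 19679, 21890 and 10378 reads, low in Dicer cKO only, at 0.548 (0.535–0.561) of Control. Ctgf, a matricellular relative of Cyr61, had 25891, 30244 and 14955 reads and a ratio just under the threshold, 0.5998 (0.588–0.612). The 3 higher genes, named after their values were seen, were Atoh8, Itgb8 and Fbn2. Atoh8, a transcription factor induced by BMPs, had 86, 144 and 182 reads and a Dicer cKO/Control ratio of 2.20 (1.69–2.87). Itgb8, an integrin subunit that activates latent TGF-beta, was at 2.12 (1.80–2.50), and Fbn2, a microfibril protein, at 1.69 (1.55–1.83). Atoh8, Itgb8 and Fbn2 were also above Control in ScxHt, at ratios of 1.605, 1.51 and 1.54. Their Dicer cKO/ScxHt ratios were 1.39, 1.43 and 1.12, and every one of these intervals lay above 1. Postn, a matrix protein induced by TGF-beta and likewise named after its values were seen, was at 1.31 (1.27–1.36) for Dicer cKO/Control. Postn was highest in ScxHt, with a ratio of 1.99 (1.93–2.05) to Control. Its Dicer cKO/ScxHt ratio was 0.6697 (0.651–0.689). Inha, the inhibin subunit, was low in both libraries with ScxCre, with 78, 30 and 40 reads, a ratio to Control of 0.369 (0.233–0.568) in ScxHt and 0.533 (0.354–0.789) in Dicer cKO.

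**Figure D4:**
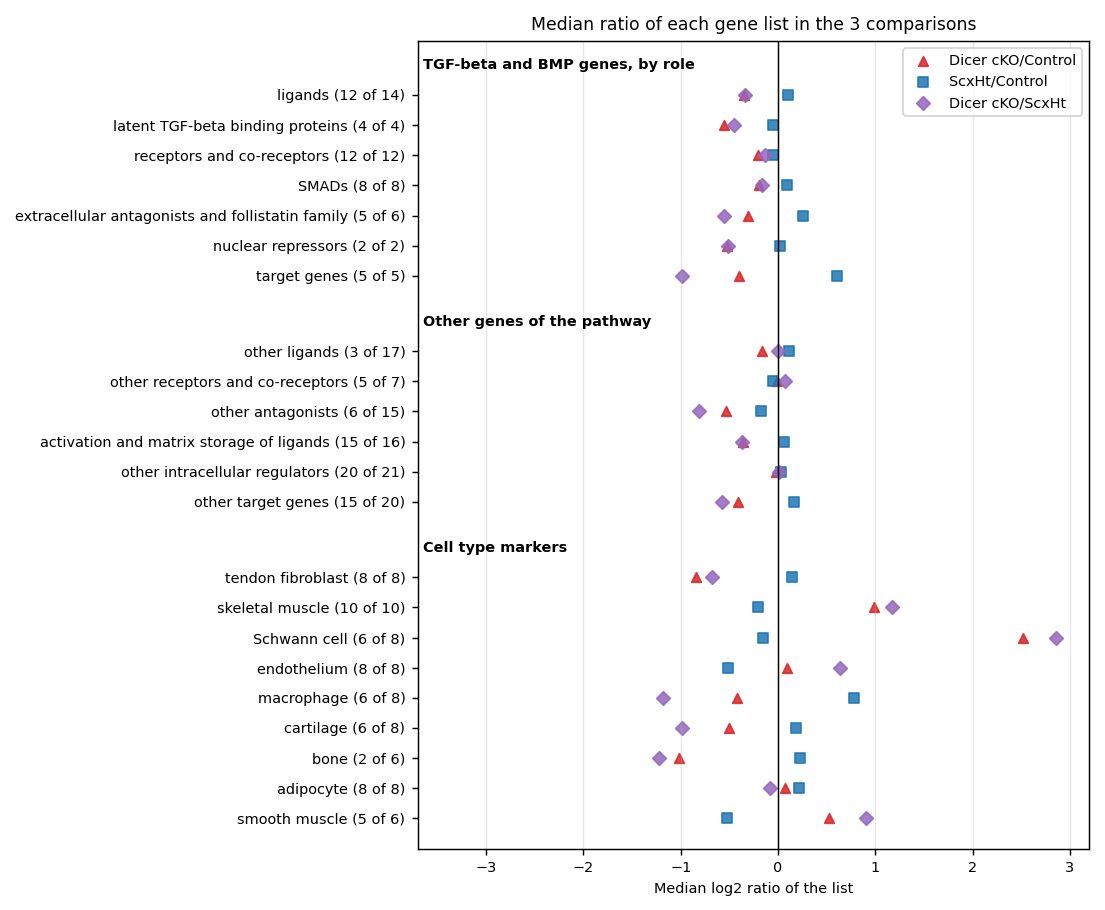
Median log2 ratio of normalized counts of each gene list in Dicer cKO/Control (triangle), ScxHt/Control (square) and Dicer cKO/ScxHt (diamond), for the TGF-beta and BMP genes by role, other genes of the pathway and cell type markers, with the number of genes analysed in Dicer cKO/Control in parentheses. Every role group lies left of 0 in Dicer cKO/Control, from -0.56 for the latent TGF-beta binding proteins to -0.20 for the SMADs, while the skeletal muscle markers lie at 0.98.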

How the data were processed

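RNA-seq libraries of Achilles tendon, 1 per genotype, were grouped by the genotype in the labels. After adaptor trimming, the authors aligned reads to GRCm38 (TopHat, Bowtie2), counted them per gene (HTSeq) and deposited the raw count of each gene. Versions, annotation release and strand setting are not given in the sources used here. The deposited RPKM values, scaled by the authors to feature length and total count, were used for levels only, and the deposited small RNA counts only for miR-135a. Of 54189 features, 463 lines repeat an earlier one, none of them a member.

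Size factors came from DESeq2 1.42.0 (R 4.3.3). Ratios and exact intervals were computed with Python 3.11.15 and scipy 1.17.1, without a dispersion model or pseudocount. Each member past a threshold, the 2 most abundant of each role, and other pathway genes past a threshold in the same direction in 2 comparisons (Dicer cKO to both others, or both to Control) were to be named, and further genes are examples. Single values of some genes that were to be named are not reported here. Members and lists were chosen with earlier results of these data known. Gene positions and 3′ UTRs are from GENCODE vM21. The procedure was tested on simulated counts with counting error only, which says nothing about the spread between mice. Alternatives were edgeR 4.0.16 TMM, total counts, joint size factors, other minimum baseMeans, other thresholds and a pseudocount of 1.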

Additional observations from a re-analysis of the deposited data

How the results depend on the processing

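The counts of members past a threshold depended on the threshold more than on the scaling. For Dicer cKO/Control, total counts gave 4 lower and 1 higher, Acvr1b, against 7 and 0. A minimum baseMean of 10 gave 1 higher and no minimum 2, limits of 1.5 and 0.67 gave 2 higher, limits of 2 and 0.5 gave 1 lower, and a whole interval past the threshold 2 lower. For ScxHt/Control (4 higher, 2 lower), limits of 2 and 0.5 gave 0 and 1, as did the whole interval, and a minimum of 200 left 0 lower. For Dicer cKO/ScxHt (2 higher, 9 lower), limits of 2 and 0.5 gave 0 and 3, the whole interval and a minimum of 200 gave 0 higher, and no minimum 4 higher. Total counts shifted every ScxHt/Control ratio by 0.10 on the log2 scale and moved the members' median from 0.07 to 0.18. Across the scalings, 8 members analysed changed sign in ScxHt/Control, 4 in Dicer cKO/Control and 2 in Dicer cKO/ScxHt, none of them past a threshold there. The medians for Dicer cKO/Control stayed between -0.32 and -0.25 and those for Dicer cKO/ScxHt between -0.44 and -0.35 over all alternatives. No paired analysis was possible because each genotype has 1 library, and no replicate could be left out for the same reason. Bmp2 and Smad9, with 60 to 135 reads per library, had intervals that spanned the lower threshold in each comparison where they were lower. So did Inhba, Ltbp2, Ltbp4 and Id2 for Dicer cKO/Control, and Inhba and Grem1 for Dicer cKO/ScxHt.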
